A study of Mus musculus with 8 samples.

Results

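The glycolytic enzymes examined were 10 genes, chosen by symbol as main enzymes and isoforms of glycolysis in the cochlea: the hexokinases *Hk1* and *Hk2*, the phosphofructokinases *Pfkl*, *Pfkm* and *Pfkp*, the aldolases *Aldoa* and *Aldoc*, phosphoglycerate kinase *Pgk1*, and the lactate dehydrogenases *Ldha* and *Ldhb*. They are 10 of the 47628 entries that name a gene in the count tables, and all 10 passed the filter on low counts, which left 19366 genes to test. Cochlear RNA was sequenced at 21 days of age from 8 untreated mice. Of these, 4 were wild type (WT, mice 4, 5, 6 and 8), and 4 were *Opa1*+/- heterozygotes, named here by their labels Het_2, Het_7, Het_484 and Het_491. The *Opa1*+/- mice were heterozygous for a knock-in allele that carries the delTTAG deletion found in patients with dominant optic atrophy, in every cell of the body, on a mixed C57BL/6 J and 129 Sv/Pas genetic background that the WT littermates shared. The comparison asks which cochlear transcripts differ between the genotypes at an age before hearing is impaired. Each library was made from the RNA of whole isolated cochlea, a mixture of sensory, neural, glial, epithelial, connective and bone tissue, so fewer cells of a type and less RNA per cell cannot be told apart.

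Glycolysis turns glucose into pyruvate in the cytosol and yields ATP without oxygen. Hexokinase traps glucose in the cell by phosphorylating it, phosphofructokinase carries out the committed and most regulated step, aldolase splits the resulting hexose into trioses, and phosphoglycerate kinase makes ATP. Lactate dehydrogenase interconverts pyruvate and lactate and so draws on the pyruvate that mitochondria would oxidize. *Opa1* encodes a dynamin-related GTPase of the inner mitochondrial membrane that fuses mitochondria and shapes cristae. When mitochondrial respiration is impaired, many cells lean more on glycolysis. In the inner ear, glucose and lactate feed the ion pumps of the stria vascularis, the sensory hair cells and the auditory neurons.

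*Opa1* itself had 118.7, 125.9, 111.7 and 122.4 CPM (counts relative to the library total, scaled by the TMM method) in WT mice 4, 5, 6 and 8. In mice Het_2, Het_7, Het_484 and Het_491 it had 63.5, 68.4, 60.4 and 70.02 CPM. Each heterozygote lay below each WT mouse, and the log2 fold change was -0.87 (standard error, SE, 0.0677), with an adjusted p of 0.00515 in edgeR's quasi-likelihood test. No gene, *Opa1* included, passed an adjusted p of 0.05 in that test without Het_2. The same held without Het_484 and Het_491, and without WT mice 5 and 6. The libraries held 15978051 to 20828030 counts on named genes. The 10 enzymes took between 0.258% and 0.288% of them, from 280 counts for *Hk2* in mouse Het_484 to 24094 counts for *Aldoa* in mouse Het_7. Markers of the cochlea were detected in all 8 mice, with summed levels of 136.2 to 202.4 CPM for 12 hair cell genes, 5795 to 6905 CPM for 12 spiral ganglion neuron genes and 610.4 to 1207 CPM for 12 genes of the stria vascularis. Skeletal muscle markers stood apart in WT mouse 6, where 14 genes summed to 2944 CPM, against 323.2 to 736.9 CPM in the 3 remaining WT mice and 49.7 to 1477 CPM in heterozygotes. Brown fat markers, 10 genes listed after their values had been seen, summed to 1100 CPM in WT mouse 5 and to 76.9 CPM in WT mouse 6. Enzyme results that rest on these mice are therefore given with and without them.

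The 250 bases before the RefSeq start sites of the enzymes (RefSeq, GRCm38.p6) were searched for ACGTG and GCGTG on both strands. These letters are the core of the element bound by the hypoxia-inducible factors, and ACGTG also falls within the E-box CACGTG, which is then counted on both strands. At least 1 match was present in 15 of the 18 windows of the 10 genes (83.3%) and in 12679 of all 32851 promoter windows of that length (38.6%). Windows of nearby start sites can overlap and count the same match again, as happened for *Aldoa* and *Pfkm*. Every one of the 10 enzymes had a window with a match, against 41.5% of all genes with a window, although genes with several start sites have more windows in which to hold one. Both motifs hold a CG pair, and the windows were not matched for base composition, so these shares do not show an enrichment of the element. Windows are shown for *Hk1*, whose groups did not overlap under TMM scaling, for *Hk2*, which varied most between mice, and for *Ldha*, which had the largest fold change of the 10. Capitals mark the matches, as read on the strand of the gene. The distal *Hk1* window, at chr10:62379909-62380158 on the minus strand, held 0 matches, and the window of a start further into the gene, at chr10:62340422-62340671 on the minus strand, held 3. The *Hk2* window, at chr6:82774455-82774704 on the minus strand, held 2, and the first *Ldha* window, at chr7:46845554-46845803 on the plus strand, held 5. A match is a description of these letters and was not tested for binding.
*Hk1*, distal start: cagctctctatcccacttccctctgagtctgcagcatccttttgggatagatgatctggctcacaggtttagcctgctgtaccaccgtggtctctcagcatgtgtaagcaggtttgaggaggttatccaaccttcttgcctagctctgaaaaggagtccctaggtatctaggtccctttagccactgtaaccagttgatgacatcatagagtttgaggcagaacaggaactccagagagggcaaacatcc
*Hk1*, inner start: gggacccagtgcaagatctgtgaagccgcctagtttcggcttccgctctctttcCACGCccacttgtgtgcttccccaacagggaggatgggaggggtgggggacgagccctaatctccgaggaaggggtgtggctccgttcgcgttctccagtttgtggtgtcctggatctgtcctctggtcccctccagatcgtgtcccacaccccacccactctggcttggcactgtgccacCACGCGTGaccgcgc
*Hk2*: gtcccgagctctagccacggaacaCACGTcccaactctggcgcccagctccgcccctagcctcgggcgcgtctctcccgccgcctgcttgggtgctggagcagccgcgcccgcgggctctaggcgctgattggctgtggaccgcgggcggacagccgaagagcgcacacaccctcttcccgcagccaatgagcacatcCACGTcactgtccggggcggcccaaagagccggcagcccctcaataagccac
*Ldha*, first start: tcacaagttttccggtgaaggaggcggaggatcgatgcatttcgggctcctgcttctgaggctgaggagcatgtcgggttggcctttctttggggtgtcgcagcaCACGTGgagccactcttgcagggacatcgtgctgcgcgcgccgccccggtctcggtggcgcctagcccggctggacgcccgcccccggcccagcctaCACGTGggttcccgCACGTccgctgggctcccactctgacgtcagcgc

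No mRNA of the 10 enzymes was found to differ between *Opa1*+/- and WT cochleae, and the estimated levels in *Opa1*+/- mice lay between 0.972- and 1.09-fold of those in WT. None of the 10 passed an adjusted p of 0.05 in edgeR's quasi-likelihood test, against 5 of the 19366 genes tested (0.0258%). Likewise, 0 of 10 had an unadjusted p under 0.05, against 1302 genes (6.72%). DESeq2's Wald test called 0 of the 10 and 23 genes in all (0.119%). Fold changes were positive for 6 enzymes and negative for 4. Their median on the log2 scale was 0.036, beside 3.95e-04 over all genes tested. The split depended on the setting. With limma voom the 4 negative fold changes were positive. Without WT mouse 6 those of *Pfkm*, *Aldoc* and *Ldhb* turned positive and that of *Pfkp* negative. Under TMM scaling, but not with total counts alone, groups did not overlap for 1 enzyme, *Hk1*, which was higher in all *Opa1*+/- mice, a pattern shown by 383 of the genes tested (1.98%). The opposite pattern was shown by 0 enzymes and by 452 genes (2.33%). Because the members were chosen with earlier results known, these counts are descriptions.

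**Figure D1:**
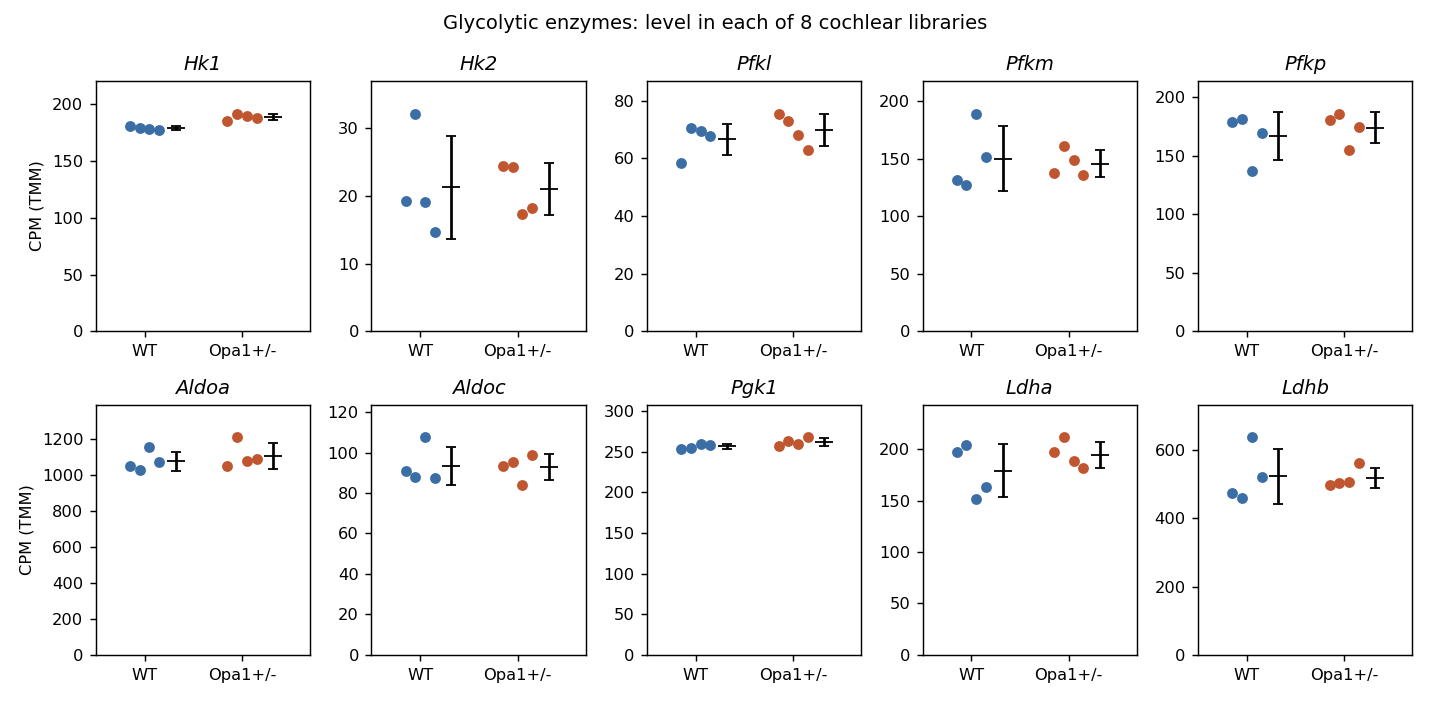
Levels of the 10 glycolytic enzymes in CPM (TMM, vertical axes from 0) in each of 4 WT (blue) and 4 *Opa1*+/- (orange) cochleae, with black bars for the mean ± SD of each group. The groups overlap for 9 enzymes and lie apart for *Hk1*, whose WT mice sit between 177.6 and 181.2 CPM and whose *Opa1*+/- mice sit between 185.8 and 191.9 CPM, although with total counts alone they overlap.

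*Hk1* (chromosome 10, 62268855 to 62379908, minus strand of GRCm38) encodes the hexokinase typical of brain, which can bind the outer mitochondrial membrane. It had 181.2, 179.5, 178.4 and 177.6 CPM in WT mice 4, 5, 6 and 8 and 185.8, 191.9, 189.7 and 188.4 CPM in mice Het_2, Het_7, Het_484 and Het_491. All 4 heterozygotes lay above all 4 WT mice, by a small margin. With means of 179.2 ± 1.55 and 189.0 ± 2.56 CPM (SD, n = 4 each), the log2 fold change was 0.077 (SE 0.0492, 95% interval -0.034 to 0.19), and edgeR's adjusted p was 0.790. This SE draws on the spread of other genes and on counting error as well as on the spread between these mice. The separation depended on the scaling: with DESeq2 size factors the groups spanned 178.1 to 180.6 and 185.9 to 191.7 CPM, but with total counts alone they overlapped, at 175.6 to 188.6 and 178.6 to 191.9 CPM. They also overlapped when mitochondrial genes were left out of the totals. The antisense gene *Hk1os* shares 157 exon bases with *Hk1* and held 11 to 22 counts per mouse, against 2952 to 3828 for *Hk1*.

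*Hk2* (chromosome 6, 82725025 to 82774454, minus strand) encodes the insulin-responsive hexokinase of muscle and fat. Its levels in WT mice 4, 5, 6 and 8 were 19.2, 32.1, 19.1 and 14.6 CPM. In mice Het_2, Het_7, Het_484 and Het_491 they were 24.4, 24.2, 17.3 and 18.1 CPM. WT mice held both the highest and the lowest value, in mice 5 and 8. The means were 21.3 ± 7.56 and 21.01 ± 3.80 CPM (SD, n = 4 each). A log2 fold change of -0.016 (SE 0.228, 95% interval -0.53 to 0.50) came with an adjusted p of 0.992 in edgeR's test. Without WT mouse 5 the log2 fold change was 0.26, and it did not pass the threshold there either. This interval, from 0.693- to 1.41-fold, was the widest of the 10.

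*Pfkl* (chromosome 10, 77986947 to 78010083, minus strand), the liver-type phosphofructokinase, had 58.4, 70.4, 69.5 and 67.9 CPM in WT and 75.5, 72.8, 68.0 and 62.8 CPM in heterozygotes, in the order of mice used above. WT mouse 4 was lowest and mouse Het_2 highest. The log2 fold change was 0.068 (SE 0.0805, 95% interval -0.11 to 0.25), with an edgeR adjusted p of 0.892. Without WT mouse 4 it was 0.012, and the highest value with 1 mouse left out was 0.11, without Het_491. *Pfkm* (chromosome 15, 98092589 to 98132451, plus strand), the muscle-type enzyme, had 131.8, 126.9, 189.1 and 151.8 CPM in WT and 137.3, 160.9, 148.5 and 136.0 CPM in heterozygotes. WT mouse 6 was well above the other 7, and the heterozygotes lay within the WT range. For *Pfkm* the log2 fold change was -0.041 (SE 0.124, 95% interval -0.32 to 0.24), with an edgeR adjusted p of 0.960. Without WT mouse 6 it was 0.091, still short of the threshold.

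*Pfkp* (chromosome 13, 6579768 to 6648777, minus strand), the platelet-type phosphofructokinase, which is also the form of many brain cells, had 179.1, 181.3, 137.1 and 169.6 CPM in WT mice 4, 5, 6 and 8. Mice Het_2, Het_7, Het_484 and Het_491 had 180.2, 186.0, 155.1 and 174.8 CPM. Here WT mouse 6 was the lowest of the 8, the reverse of its place for *Pfkm*. EdgeR gave a log2 fold change of 0.061 (SE 0.0983, 95% interval -0.16 to 0.28) and an adjusted p of 0.923. Without WT mouse 6 it was -0.021. *Pfkp* shares 748 exon bases with *Pitrm1* on the opposite strand, which held 700 to 937 counts per mouse. The use of strand in counting is not given in the sources used here, so reads of that stretch cannot be assigned to either gene.

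*Aldoa* (chromosome 7, 126795234 to 126800751, minus strand) encodes the aldolase of muscle and of most other tissues, and was the most abundant of the 10 mRNAs. It had 1047, 1026, 1152 and 1071 CPM in WT and 1049, 1208, 1074 and 1090 CPM in heterozygotes. The highest values were those of mouse Het_7 and WT mouse 6, and the groups overlapped. The log2 fold change of *Aldoa* was 0.041 (SE 0.0683, 95% interval -0.11 to 0.19), with an edgeR adjusted p of 0.928. Without WT mouse 6 it was 0.077 and without Het_7 it was -0.0039, neither past the threshold. The annotation gives the name *Aldoa* to a neighbouring gene as well, and the tables list the symbol once. *Aldoc* (chromosome 11, 78322968 to 78327781, plus strand), the brain-type aldolase, had 91.0, 88.1, 107.5 and 87.3 CPM in WT and 93.5, 95.5, 84.0 and 98.8 CPM in heterozygotes. WT mouse 6 was again highest. With a log2 fold change of -0.0076 (SE 0.0834, 95% interval -0.19 to 0.18), the adjusted p of *Aldoc* was 0.989 in edgeR's test. Without WT mouse 6 the log2 fold change was 0.067, also short of the threshold.

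*Pgk1* (chromosome X, 106187100 to 106203699, plus strand) encodes the first ATP-making enzyme of the pathway. WT mice 4, 5, 6 and 8 had 253.8, 254.2, 259.2 and 258.6 CPM. mice Het_2, Het_7, Het_484 and Het_491 had 257.4, 262.6, 259.7 and 267.6 CPM. All 8 mice were close together, with overlapping groups. Its log2 fold change was 0.030 (SE 0.0502, 95% interval -0.083 to 0.14), and its adjusted p in edgeR's test was 0.929. The tables list *Pgk1-rs7* and *Gm5537*, whose sequences match *Pgk1* with 100% identity over 1255 and 1252 bases. They held 48.8% to 49.97% of the summed counts of the 3 entries in each mouse, so the count under *Pgk1* alone may understate its mRNA. Summed, the 3 entries had 506.1 ± 7.04 CPM in WT and 517.2 ± 8.05 CPM in heterozygotes (SD, n = 4 each). The log2 fold change of the sum was 0.032 (SE 0.0508), with an adjusted p of 0.924 in edgeR.

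*Ldha* (chromosome 7, 46841475 to 46855627, plus strand) encodes the M subunit of lactate dehydrogenase, the form prevalent in muscle and in tissues that release lactate. It had 197.4, 204.1, 151.7 and 163.5 CPM in WT and 197.0, 211.5, 188.1 and 182.0 CPM in heterozygotes. WT mice 6 and 8 were the lowest of the 8, and WT mice 4 and 5 lay among the heterozygotes. The means were 179.2 ± 25.5 and 194.6 ± 12.8 CPM (SD, n = 4 each), and the log2 fold change was 0.12 (SE 0.103, 95% interval -0.11 to 0.35), with an edgeR adjusted p of 0.842. This was the largest of the 10 fold changes. Leaving out WT mouse 6 gave 0.048 and leaving out WT mouse 5 gave 0.19, neither past the threshold.

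*Ldhb* (chromosome 6, 142490249 to 142507957, minus strand) encodes the H subunit, prevalent in heart and in tissues that oxidize lactate. Its levels were 472.9, 459.1, 636.8 and 521.1 CPM in WT and 497.4, 503.5, 506.5 and 562.9 CPM in heterozygotes. WT mouse 6 was highest, mouse Het_491 came next, and the remaining mice lay between 459.1 and 521.1 CPM. The log2 fold change was -0.014 (SE 0.105, 95% interval -0.25 to 0.22), with an edgeR adjusted p of 0.984, and it was 0.096 without WT mouse 6. Processed copies took little of either gene's signal: 11 copies held 5.01% to 8.15% of the summed counts for *Ldha*, and *Gm5514* held 3.12% to 3.44% for *Ldhb*. Copies of *Aldoa*, 5 in number, held 2.95% to 4.60%. With copies added, the log2 fold changes were 0.050 for *Aldoa*, 0.13 for *Ldha* and -0.012 for *Ldhb*, none past the threshold in edgeR.

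**Figure D2:**
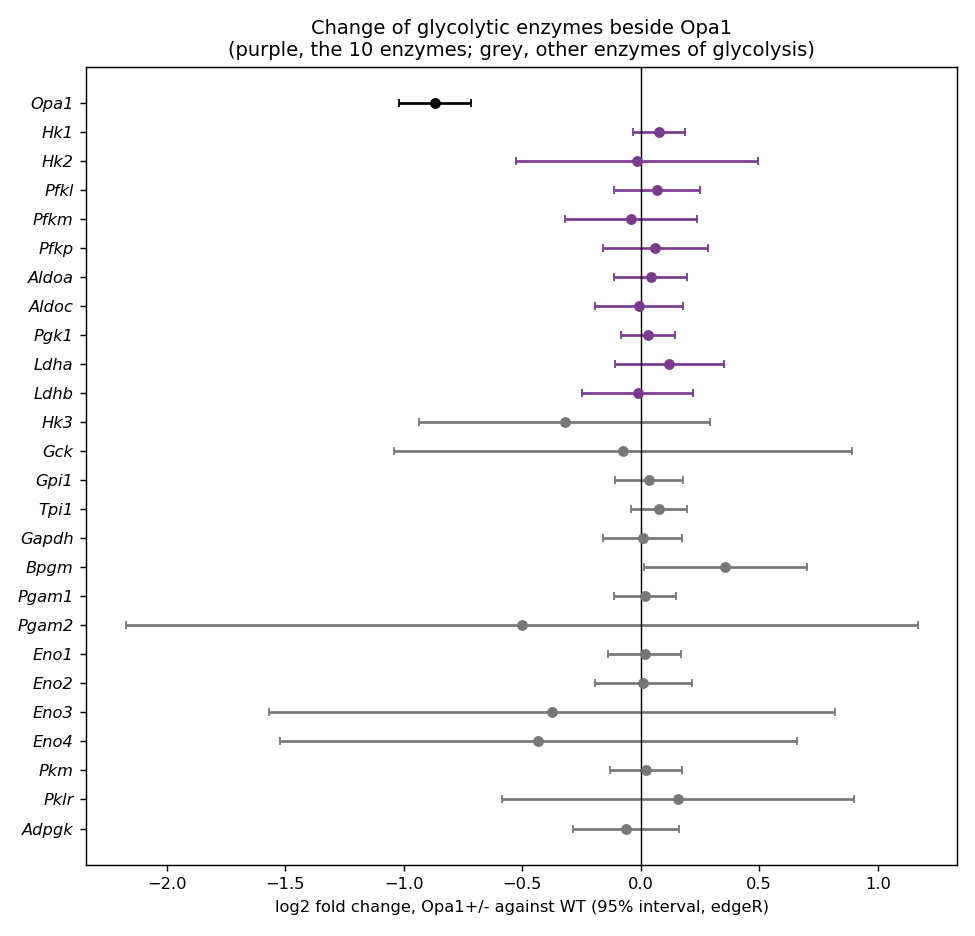
Log2 fold changes, *Opa1*+/- against WT, with 95% intervals from edgeR, for *Opa1* (black), the 10 glycolytic enzymes (purple) and 15 other enzymes of glycolysis that were tested (grey). *Opa1* lies at -0.87, all 10 purple intervals include 0, and *Bpgm* at 0.36 is the grey gene whose interval lies above 0.

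The precision differed between the enzymes. *Hk1* and *Pgk1* had the narrowest intervals of the 10, which reached from 0.977- to 1.14-fold and from 0.944- to 1.10-fold. Over all 8 mice the SD of log2 CPM was 0.0246 for *Pgk1* and 0.0436 for *Hk1*. Among the 11471 genes with a mean of at least 10 CPM, these SDs stood at percentiles 0.0436 and 0.985. The genes were not matched for level, and counting error adds more to the SD of genes with fewer counts. The percentiles therefore reflect depth as well as the spread between mice. They also rest on TMM scaling. With total counts alone *Pgk1* spanned 250 to 274.7 CPM over the 8 mice, against 253.8 to 267.6 CPM under TMM. *Hk2*, with an SD of 0.349, stood at percentile 95. *Pfkm*, *Ldha*, *Ldhb* and *Pfkp* had SDs of 0.186, 0.164, 0.1496 and 0.147, at percentiles 79, 71.5, 65.2 and 64. *Aldoa* was the third steadiest of the 10, with an SD of 0.0786 at percentile 14.9.

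Levels of different genes were compared as CPM per kilobase of a principal transcript. Averaged over 8 mice, *Aldoa* had 721.1 ± 40.3, *Ldhb* 398.8 ± 43.4, *Pgk1* 142.0 ± 2.43 and *Ldha* 105.8 ± 11.6 CPM per kilobase (SD, n = 8). Each of these was above the next in 8 of 8 mice, with ranges that lay apart. With its identical copies added, *Pgk1* had 280.4 ± 5.04 CPM per kilobase, still below *Ldhb* and above *Ldha* in 8 of 8 mice. *Pfkm* (51.3 ± 6.99) and *Hk1* (47.8 ± 1.45) followed, and *Pfkm* exceeded *Hk1* in 4 of 8 mice, so their order was not resolved. *Pfkp* (41.1 ± 3.97) exceeded *Aldoc* (33.5 ± 2.69) in 7 of 8 mice, with ranges that overlapped. *Pfkl* (18.3 ± 1.46) and *Hk2* (3.83 ± 1.01 CPM per kilobase) came last, each below its upper neighbour in 8 of 8 mice. From *Aldoa* to *Hk2* the mean levels spanned 188.1-fold. The order depended in part on the length used: with the union of exons, a choice made after seeing the data, *Aldoa* had 424.8 ± 23.7 CPM per kilobase and exceeded *Ldhb* in 6 of 8 mice, with overlapping ranges. That union was taken by symbol, so for *Aldoa* it can include exons of the neighbouring gene of the same name. On that scale *Pfkm* exceeded *Pfkp* in 8 of 8 mice, *Pfkp* exceeded *Hk1* in 6 of 8, and the span was 112.9-fold.

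Within each family the isoforms held the same order in both genotypes. *Hk1* made up 92.4% ± 2.45 of the length-scaled hexokinase counts of *Hk1* and *Hk2* in WT mice and 92.8% ± 1.22 in *Opa1*+/- mice (SD, n = 4 each). *Aldoa* made up 95.5% ± 0.244 and 95.6% ± 0.323 of the aldolase counts. The *Ldha* share of lactate dehydrogenase was 20.5% ± 4.50 in WT and 21.8% ± 1.89 in *Opa1*+/- mice, the rest being *Ldhb*. Of phosphofructokinase, *Pfkm* held 47.0% ± 6.41 and 45.5% ± 2.31, *Pfkp* 36.8% ± 6.12 and 37.7% ± 2.13, and *Pfkl* 16.2% ± 1.13 and 16.8% ± 1.03. The genotypes overlapped for each of these shares. *Opa1*+/- minus WT differences ran from -1.58 percentage points for *Pfkm* to 1.26 for *Ldha*. Leaving out WT mouse 6 turned the sign of the *Pfkm*, *Pfkp* and *Ldha* differences, to 1.39, -1.90 and -0.589 points, and leaving out WT mouse 5 turned that of *Hk1*, to -0.771. Without WT mouse 5 the *Pfkm*, *Pfkp* and *Ldha* differences were -3.485, 2.379 and 2.664 points, farther from 0 than with all mice. Without WT mouse 6, the moves of *Pfkm* and *Pfkp* were larger than the SD among heterozygotes and smaller than the SD among WT mice, which includes mouse 6.

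**Figure D3:**
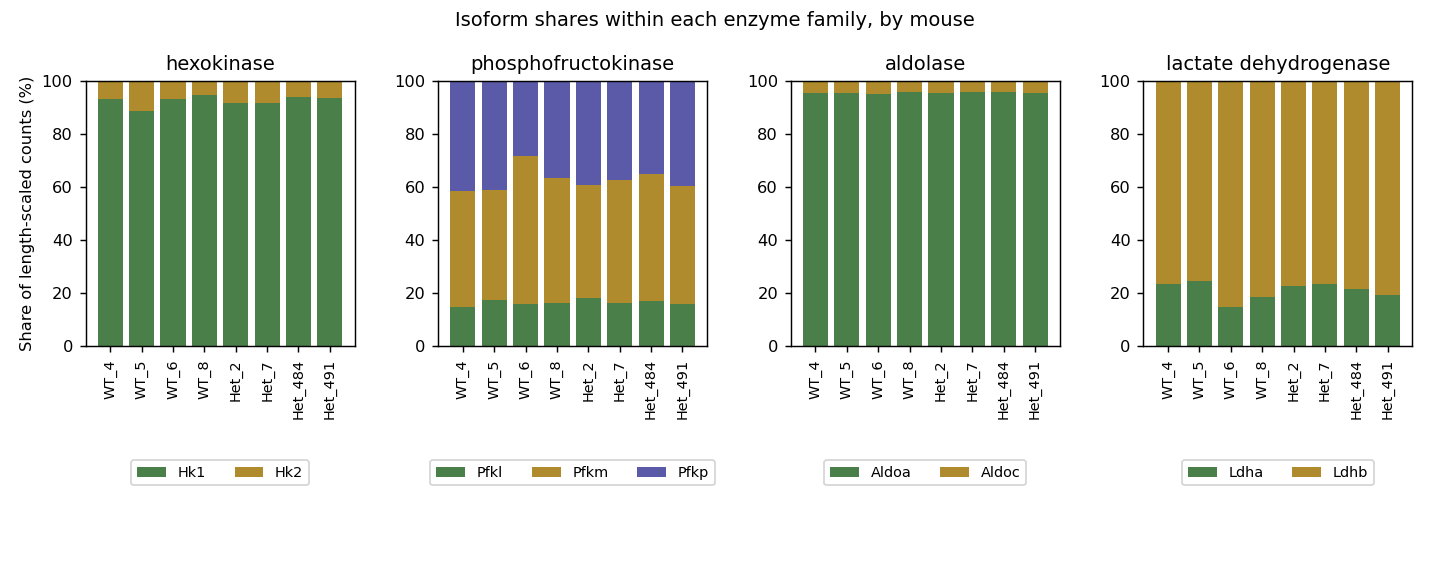
Share of each isoform in the length-scaled counts of its enzyme family (percent, vertical axis) in each of the 8 mice, stacked to 100%. *Hk1* and *Aldoa* fill most of their families in every mouse. *Hk1* is lowest in WT mouse 5 (88.9%), and for phosphofructokinase and lactate dehydrogenase WT mouse 6 stands furthest from the others, with a *Pfkm* share of 55.95%, a *Pfkp* share of 28.2% and an *Ldha* share of 15.0%.

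For 6 of the 10 enzymes, the value farthest from the mean of the 8 mice was that of WT mouse 5 or 6. The share of all genes tested with this pattern was not determined, so the count is a description. In WT mouse 6, *Pfkm*, *Ldhb* and *Aldoc* stood 0.37, 0.30 and 0.21 above their means on the log2 scale, while *Pfkp* and *Ldha* stood at -0.31 and -0.29. In that mouse skeletal muscle markers were highest of the 8 and brown fat markers lowest. The muscle enzymes *Pgam2* (phosphoglycerate mutase) and *Eno3* (enolase), named here after their values were seen, were also highest there, at 26.5 and 73.1 CPM, against 0.766 to 15.1 and 10.02 to 45.4 CPM in the other mice. mouse Het_491 had the lowest muscle sum, 49.7 CPM, with *Pfkm* at 136.0 CPM and *Ldhb* at 562.9 CPM. In WT mouse 5, *Hk2* stood 0.63 above its mean, and brown fat markers were highest of the 8. The glucose transporter gene *Slc2a4*, likewise named after its values were seen, and the kinase gene *Pdk4* stood 0.42 and 0.74 above their means in that mouse. *Slc2a4* was higher still in Het_7, at 0.47, and stood at 0.28 in WT mouse 6. The part of other tissues in these values was not tested.

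The marker lists of other tissues moved as follows between genotypes. All 14 muscle markers were detected in all 8 mice and had negative fold changes, with a median of -0.68 on the log2 scale, but 0 of 14 passed the threshold in edgeR, 0 had an unadjusted p under 0.05, and the sums overlapped (exact two-sided permutation test, p = 0.714). Without WT mouse 6 the direction turned: 13 of 14 fold changes were positive, with a median of 0.54. All 10 brown fat markers had positive fold changes, with a median of 0.79, and 0 of 10 passed, with 2 unadjusted p-values under 0.05 in edgeR. Leaving out WT mouse 6 gave a median of 0.45, and leaving out WT mouse 5 gave 1.80. The count of unadjusted p-values under 0.05 became 0 of 10 without WT mouse 6, where 7.82% of all genes tested were under 0.05, and 10 of 10 when WT mouse 5 was left out, where 5.44% were. The list was chosen on these values, so its direction and counts are descriptions. Their sums were 448.5, 1100, 76.9 and 131.1 CPM in WT mice 4, 5, 6 and 8 and 630.6 to 959.7 CPM in heterozygotes. The 11 erythroid markers measured also had positive fold changes (median 0.55, 0 of 11 passing, 0 with an unadjusted p under 0.05, median 0.32 without WT mouse 6), with sums of 7757 to 21503 CPM in WT and 15100 to 25087 CPM in heterozygotes (exact permutation p = 0.171). For the hair cell, spiral ganglion neuron, Schwann cell and stria vascularis lists the exact permutation p-values of the sums were 0.886, 0.686, 0.257 and 0.743. They were 0.400, 0.543 and 0.857 for fibrocyte, bone and neutrophil markers. Gene by gene, 11 of 12 Schwann cell and myelin markers had positive fold changes (median 0.16), 11 of 12 stria vascularis markers negative ones (median -0.15) and 7 of 8 fibrocyte markers negative ones (median -0.14). In edgeR 0 genes of these lists passed, and *Otor*, named after its values were seen, was the 1 with an unadjusted p under 0.05 and groups that did not overlap (log2 fold change -0.51, unadjusted p 0.00632, adjusted p 0.721). Of all genes tested, 6.72% were under 0.05 in edgeR, and 2.33% had all heterozygotes below all WT mice. Leaving out WT mouse 6 put 2 Schwann cell and 2 fibrocyte markers under 0.05, and leaving out WT mouse 5 put 1 stria vascularis, 1 fibrocyte and 1 hair cell marker there, with 0 past the adjusted threshold. Without WT mouse 6, 7 of 12 stria vascularis markers had positive fold changes, with a median of 0.0075, while the Schwann cell and fibrocyte medians were 0.25 and -0.081. Fold changes were evenly split for spiral ganglion neuron and neutrophil markers (6 of 12 positive each), and 5 of 12 hair cell and 4 of 10 bone markers had positive ones. These splits moved with single WT mice as well. For neutrophil markers, 2 of 12 were positive after leaving out either WT mouse 5 or WT mouse 6 (medians -0.19 and -0.20). For hair cell markers, 7 of 12 were positive without WT mouse 6 (median 0.059), and for spiral ganglion neuron markers 0 of 12 were positive without both WT mice (median -0.12). The smallest p that 70 arrangements of 8 mice allow is 0.0286.

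**Figure D4:**
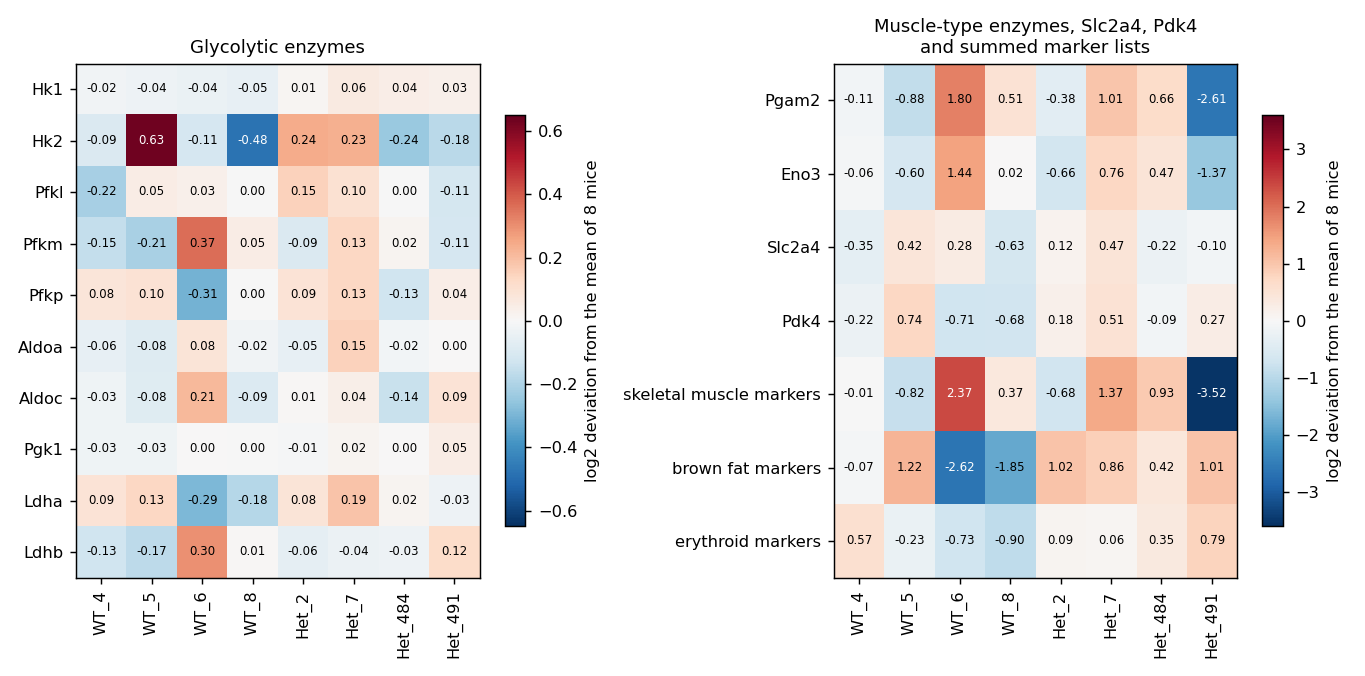
Deviation of log2 CPM from the mean of the 8 mice for the 10 glycolytic enzymes (left, colour scale to 0.65) and for *Pgam2*, *Eno3*, *Slc2a4*, *Pdk4* and the summed skeletal muscle, brown fat and erythroid markers (right, colour scale to 3.6). *Hk2* is highest in WT mouse 5 (0.63), and in WT mouse 6 *Pfkm* and *Ldhb* are raised (0.37 and 0.30) while *Pfkp* and *Ldha* are lowered (-0.31 and -0.29).

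The same fit was read for other enzymes of the pathway. Of 20 listed, 15 could be tested and 0 passed the adjusted threshold in edgeR, with 9 positive and 6 negative fold changes and a median of 0.010. The split rested on single mice: leaving out WT mouse 5 gave 6 positive and 9 negative fold changes (median -0.023), and leaving out WT mouse 6 gave a median of 0.039. *Gapdh*, which makes the NADH that lactate dehydrogenase uses up, had 1059 ± 79.6 CPM in WT and 1065 ± 62.5 CPM in heterozygotes (SD, n = 4 each). *Pkm*, the pyruvate kinase outside liver and red cells, had 676.3 ± 50.8 and 686.2 ± 21.7 CPM. *Eno1* and *Gpi1*, enolase and phosphoglucose isomerase, had log2 fold changes of 0.017 and 0.034. Triose phosphate isomerase *Tpi1* had 236.0 to 244.0 CPM in WT and 247.1 to 260.7 CPM in heterozygotes. These groups did not overlap under TMM scaling, with heterozygotes higher, as for 1.98% of all genes tested. The log2 fold change of *Tpi1* was 0.078 (SE 0.0522), with an edgeR adjusted p of 0.790. With total counts alone the *Tpi1* groups overlapped, at 238.4 to 253.9 and 245.8 to 257.4 CPM. *Hk3*, a hexokinase of white blood cells, was low, at 4.06 ± 1.21 and 3.25 ± 1.13 CPM.

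*Bpgm*, the bisphosphoglycerate mutase of red cells, was the 1 gene of the 15 with an unadjusted p under 0.05. That share is near the 6.72% of all genes tested, so the count is no result about the list. It had 65.9, 50.2, 43.4 and 40.9 CPM in WT mice 4, 5, 6 and 8 and 61.8, 58.4, 59.0 and 77.6 CPM in mice Het_2, Het_7, Het_484 and Het_491. WT mouse 4 lay among the heterozygotes. EdgeR gave a log2 fold change of 0.36 (SE 0.153), an unadjusted p of 0.0435 and an adjusted p of 0.732. Leaving out WT mouse 5 raised the unadjusted p in edgeR to 0.0740 and leaving out WT mouse 6 raised it to 0.100, with log2 fold changes of 0.36 and 0.29. In those fits 0 of the 15 genes were under 0.05, against 5.44% and 7.82% of all genes tested. The erythroid sum was highest in mouse Het_491 and WT mouse 4 (25087 and 21503 CPM), which also had the highest *Bpgm*, and lowest in WT mouse 8 (7757 CPM), which had the lowest *Bpgm*. The part of blood in this value was not tested.

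Among genes for glucose and lactate transport, 11 of 12 were tested and 0 passed in edgeR, with a median log2 fold change of -0.056 (-0.029 without WT mouse 5). Unadjusted p-values under 0.05 numbered 0, against 6.72% of all genes tested. That count became 2 without WT mouse 5 and 1 without WT mouse 6, where 5.44% and 7.82% of all genes tested were under 0.05. *Slc2a1*, the main glucose transporter of endothelium and of many epithelia, had 127.9 ± 26.6 CPM in WT and 120.7 ± 5.56 CPM in heterozygotes (SD, n = 4 each). *Slc16a1*, a monocarboxylate transporter that carries lactate, had 57.6 ± 12.2 and 63.2 ± 4.85 CPM. Its chaperones *Bsg* and *Emb* had log2 fold changes of 0.055 and -0.12. *Slc2a12* and *Slc2a10*, further glucose transporter genes, had log2 fold changes of -0.29 and -0.16, and edgeR's adjusted p for *Slc2a12* was 0.749.

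Regulators of the flux through glycolysis were tested for all 12 listed genes. Of these, 0 passed in edgeR and 0 had an unadjusted p under 0.05, with a median log2 fold change of 0.0097 (-0.011 without WT mouse 6). The count of unadjusted p-values under 0.05 became 2 when WT mouse 5 was left out, where 5.44% of all genes tested were under 0.05. The pyruvate dehydrogenase kinases hold pyruvate back from mitochondrial oxidation. *Pdk1*, *Pdk2*, *Pdk3* and *Pdk4* had log2 fold changes of -0.062, 0.12, -0.18 and 0.32. For *Pdk4*, WT mice had 41.3, 80.5, 29.2 and 29.8 CPM and *Opa1*+/- mice 54.4, 68.6, 45.1 and 58.2 CPM, so that WT mouse 5 was highest and WT mice 6 and 8 lowest (edgeR SE 0.304, adjusted p 0.854). Without WT mouse 5 the log2 fold change of *Pdk4* was 0.76 (SE 0.165, unadjusted p 0.00149), with an edgeR adjusted p of 0.523, and without WT mouse 6 it was 0.16. *Pfkfb3* and *Pfkfb2*, which make the activator of phosphofructokinase, had log2 fold changes of -0.090 and -0.13. *Pgp*, a phosphatase that clears side products of glycolysis, had 0.088.

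Several glycolytic genes are known targets of the hypoxia-inducible factors, so genes of the hypoxia response were counted too. Of 16 listed, 15 were tested and 0 passed in edgeR, with a median log2 fold change of -0.031 (0.013 without WT mouse 6). *Hif1a* and *Epas1*, which encode alpha subunits of these factors, had log2 fold changes of -0.087 and -0.043. The target genes *Ndrg1*, *Vegfa* and *Mxi1* had 0.14, 0.18 and -0.092. *Egln2*, a prolyl hydroxylase that marks the alpha subunits for degradation, had 38.0 to 42.2 CPM in WT and 43.0 to 49.9 CPM in heterozygotes. Its groups did not overlap under TMM scaling, with heterozygotes higher, as for 1.98% of all genes tested. It was the 1 gene of the 15 with an unadjusted p under 0.05, a share near the 6.72% of all genes tested. In edgeR its log2 fold change was 0.21 (SE 0.0661), with an unadjusted p of 0.0119 and an adjusted p of 0.721. With total counts alone the groups of *Egln2* overlapped, at 37.4 to 44.8 and 42.5 to 50.5 CPM. The count of hypoxia genes with an unadjusted p under 0.05 became 2 after leaving out either WT mouse 5 or WT mouse 6. Of all genes tested, 5.44% and 7.82% were under 0.05 in those fits. DESeq2's Wald test called 0 genes of the pathway and marker lists.

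For the 3 enzymes that varied most, the genes with the most similar profile over the 8 mice were sought among 11470 genes of at least 10 CPM, by the mean absolute difference of log2 deviations. For *Hk2* these were *Scd3*, *Pon3* and *Mpc1-ps*, at 0.113, 0.114 and 0.116. *Scd3*, a fatty acid desaturase gene, was highest in WT mouse 5 (21.4 CPM, against 11.2 to 17.7 CPM elsewhere), like *Hk2*. The closest genes to *Pfkm* were *Slc9a2*, *Pear1* and *Scarf2*, at 0.0322, 0.0349 and 0.0431, and each was highest in WT mouse 6. *Slc9a2* had 31.6 CPM there and 21.3 to 25.6 CPM in the other 7 mice. For *Ldha* they were *Pccb*, *Aqp1* and *Acat1*, at 0.0408, 0.0448 and 0.0464. *Pccb* and *Acat1* encode mitochondrial enzymes of propionate and ketone metabolism, and *Aqp1* encodes a water channel. The 3 genes had their lowest values in WT mice 6 and 8, as *Ldha* had.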

How the data were processed

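The authors prepared CORALL libraries from cochlear RNA, sequenced paired reads of 80 nucleotides on a NextSeq500, aligned them to GRCm38 (STAR) and corrected amplification bias by molecular identifiers. They used the CORALL Data Analysis Pipeline and deposited 1 table of raw counts per gene symbol and mouse, without normalization. The counting program within it and its use of strand are not given in the sources used here. For RNA extraction the study's methods name TRI Reagent and NucleoSpin microcolumns, and the labels name TRI Reagent or an RNeasy kit.

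Entries with a number in place of a symbol (15, 0.112% to 0.124% of counts) were left out. Genes with a mean count over 10 after DESeq2 scaling were tested with edgeR 4.0.16 (quasi-likelihood, TMM, Benjamini-Hochberg over 19366 genes, threshold 0.05), with DESeq2 1.42.0 and limma 3.58.1 (voom) as alternatives. Scripts were tested on simulated data. EdgeR's p-values rest on the spread between 4 mice per genotype, drawn toward the spread of other genes, and on counting error. Groups came from the labels and share no animal numbers. Log2 deviations used a pseudocount of 0.5 CPM. Near-identical copies had at least 90% identity over 200 bases (blastn 2.17.0). Positions are from GENCODE M21, and lengths are of 1 principal transcript per gene. Named genes were the 10 enzymes, *Opa1*, the 4 most abundant and the 3 of lowest p in each pathway list, and the 3 most similar genes of the 3 most variable enzymes. Outside this rule, *Pgam2*, *Eno3*, *Slc2a4* and *Otor* were named after their values were seen. The members and lists were chosen with earlier results of these data known.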

Additional observations from a re-analysis of the deposited data

Results flagged for a closer look

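In groups of 4 mice, a highest or lowest value was marked where its gap to the nearest mouse divided by the group's range exceeded Dixon's 95% critical value. Chance marks about 1 in 20 groups, and 5 of 106 groups were marked. *Ldhb* stood apart in mouse Het_491, at 562.9 CPM against 497.4 to 506.5 CPM in the other *Opa1*+/- mice. *Eno1* was highest in WT mouse 5, at 556.4 CPM against 475.9 to 488.9 CPM among the remaining WT mice. *Hif1a* was lowest in WT mouse 4, at 75.7 CPM against 97.2 to 101.5 CPM. Summed skeletal muscle markers reached 2944 CPM in WT mouse 6 against 323.2 to 736.9 CPM. Summed neutrophil and marrow markers reached 1457 CPM in WT mouse 4 against 444.6 to 541.6 CPM.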

How the results depend on the processing

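Under 19 alternatives, 0 of the 10 enzymes passed the threshold, and their median log2 fold change stayed between 0.0073 and 0.074 (0.014 to 0.071 with 1 mouse left out). Of 190 single values, 163 kept their direction and 27 did not. *Hk1*, *Pfkl* and *Pgk1* kept theirs under all 19, and the differences in isoform share moved by less than the pooled SD of both genotypes under all 10 of theirs, although without WT mouse 6 those of *Pfkm* and *Pfkp* moved by more than the SD among heterozygotes. The number of genes called in all, 5, became 23 with DESeq2's Wald test, 12 without a filter, 10 with limma voom and 10 with robust estimation. It became 0 without both *Opa1*+/- mice with 3-digit numbers, 0 without WT mice 5 and 6, 1 with muscle and brown fat sums as covariates, and 0 to 9 with 1 mouse left out, 0 without Het_2. Leaving out WT mouse 4 gave 9, Het_7 gave 8, WT mouse 5 gave 2, and each of WT mice 6 and 8, Het_484 and Het_491 gave 1. The cause was not tested.

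Directions turned as follows. With limma voom, log2 fold changes were 0.051 for *Hk2*, 0.018 for *Pfkm*, 0.021 for *Aldoc* and 0.020 for *Ldhb*. Without both *Opa1*+/- mice with 3-digit numbers, they were 0.19 for *Hk2* and 0.016 for *Aldoc*. The next 2 settings were chosen after seeing the data. Without WT mice 5 and 6, they were 0.32 for *Hk2*, 0.039 for *Pfkm*, -0.0023 for *Pfkp*, 0.061 for *Aldoc* and 0.059 for *Ldhb*. With muscle and brown fat sums as covariates, *Hk2* kept its direction at -0.39, against -0.016 in the main comparison, with an adjusted p of 0.681 in edgeR, and values were 0.19 for *Pfkm*, -0.087 for *Pfkp*, 0.072 for *Aldoc*, -0.078 for *Ldha* and 0.18 for *Ldhb*. With 1 mouse left out, ranges were -0.17 to 0.26 for *Hk2*, -0.11 to 0.091 for *Pfkm*, -0.021 to 0.12 for *Pfkp*, -0.0039 to 0.077 for *Aldoa*, -0.043 to 0.067 for *Aldoc* and -0.071 to 0.096 for *Ldhb*. They were 0.069 to 0.088 for *Hk1*, 0.012 to 0.11 for *Pfkl*, 0.016 to 0.041 for *Pgk1* and 0.048 to 0.19 for *Ldha*. No paired analysis was run, because the labels do not give the litter of each mouse. Depth was lowest for *Hk2*, at 280 to 658 counts per mouse, and counting error was not separated from the spread between mice. Adding near-identical copies, scaling lengths to all exons, and leaving WT mice 5 and 6 out of the marker lists and *Pdk4* were also chosen after seeing the data.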
